A study of Homo sapiens with 22 samples.

Results

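In xenografts of the lung cancer line H3122, 10 human genes were followed: the drug target ALK, its fusion partner EML4, and 8 receptor tyrosine kinases that have been discussed as bypass routes when ALK is blocked, RET, KIT, AXL, ROS1, FGFR1, FGFR2, FGFR3 and FGFR4. They were picked by symbol and are 10 of the 58735 genes in the human table. Of these 10 genes, 8 reached an FPKM (fragments scaled to gene length and library size) of 1 in at least 3 libraries and were tested, whereas AXL and ROS1 did not in any library. H3122 is a single human lung adenocarcinoma line, labelled ALK-positive, grown as tumours in NSG mice, which lack T, B and natural killer cells, or in hHGF-NSG mice, NSG hosts humanized for hepatocyte growth factor (HGF), the ligand of the receptor MET. Tumours were therapy-naive or exposed to alectinib, an ALK inhibitor that also blocks RET, for 2 or 6 weeks, giving 22 libraries in 6 groups: NSG naive, 2 weeks and 6 weeks (n = 4 each), and hHGF-NSG naive (n = 3), 2 weeks (n = 4) and 6 weeks (n = 3). All 6 groups share the same tumour line and the NSG background. The dose, the age and sex of the hosts, the promoter behind human HGF and whether each library came from its own animal stand in none of the labels used here, so p-values measure the spread between these libraries.

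ALK, EML4 and the receptors form 1 signalling layer. A receptor tyrosine kinase normally waits for a ligand, pairs with a second copy of itself and passes the signal through adaptor proteins to the MAP kinase and PI3 kinase pathways. In ALK-positive lung cancer a rearrangement on chromosome 2 joins the front of EML4, a microtubule-binding protein that forms oligomers, to the kinase end of ALK, which lung epithelium hardly transcribes, so that the EML4 promoter drives the fusion and no ligand is needed. When ALK is inhibited, other receptors can feed the same pathways, and this is what the word bypass refers to.

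The sequence at the fusion junction is shown because fusion reads within the exons of ALK or EML4 can enter the gene-level value of that gene. H3122 is known for the fusion of EML4 exon 13 to ALK exon 20, called variant 1. No reads across the junction were examined, and the letters below are the reference exons of GENCODE 29, with ALK in capitals. EML4 exon 13 lies on the plus strand and ends at chr2:42295487-42295516 (GRCh38). ALK exon 20 lies on the minus strand and begins at chr2:29223499-29223528. Both stretches are coding.
EML4 exon 13, last 30 bases: tagagcccacacctgggaaaggacctaaag
ALK exon 20, first 30 bases: TGTACCGCCGGAAGCACCAGGAGCTGCAAG
Joined: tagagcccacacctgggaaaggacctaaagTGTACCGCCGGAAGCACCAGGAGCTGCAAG
ALK exon 20 to exon 29, the part kept in such a fusion, make up 2141 of the 6220 bases of the reference transcript. EML4 exons 1 to 13 make up 1751 of 5549 bases. The deposited FPKM divide by a gene length of 7362 bases for ALK and 8357 bases for EML4. A read on EML4 exons before the junction counts for EML4 whether it came from the fusion or from the unrearranged copy, so fusion and native messages cannot be told apart in these values.

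The promoters shown are those of EML4, which drives the fusion, of ALK, which is left behind, and of RET and KIT. RET and KIT are the tested members whose log2(FPKM + 1) rose most. The promoters come from RefSeq (GRCh38.p14), which matched 9 of 10 members. They run from 250 bases before to 50 bases after the start site nearest to the start of the deposited gene. Capitals mark every match, on either strand, to 6 motifs: the GC box (GGGCGG), the E-box (CACGTG), the ETS core (CCGGAAG), the AP-1 site (TGANTCA), the forkhead site (TGTTTAC) and the TATA box (TATAAA).
EML4, chr2:42169103-42169402, plus strand: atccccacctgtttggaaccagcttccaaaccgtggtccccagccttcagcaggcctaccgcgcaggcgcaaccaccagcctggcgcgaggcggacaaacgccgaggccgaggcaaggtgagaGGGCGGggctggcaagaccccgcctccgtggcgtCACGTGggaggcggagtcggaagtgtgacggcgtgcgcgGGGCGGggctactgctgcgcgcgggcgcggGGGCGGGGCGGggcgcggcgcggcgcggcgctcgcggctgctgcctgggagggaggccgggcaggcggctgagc
ALK, chr2:29921537-29921836, minus strand: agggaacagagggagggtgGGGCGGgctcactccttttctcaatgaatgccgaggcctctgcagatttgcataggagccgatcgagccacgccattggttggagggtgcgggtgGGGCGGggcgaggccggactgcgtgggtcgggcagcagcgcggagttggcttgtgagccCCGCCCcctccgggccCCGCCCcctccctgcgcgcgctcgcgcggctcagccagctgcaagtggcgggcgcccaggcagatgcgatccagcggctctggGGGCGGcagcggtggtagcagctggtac
RET, chr10:43076819-43077118, plus strand: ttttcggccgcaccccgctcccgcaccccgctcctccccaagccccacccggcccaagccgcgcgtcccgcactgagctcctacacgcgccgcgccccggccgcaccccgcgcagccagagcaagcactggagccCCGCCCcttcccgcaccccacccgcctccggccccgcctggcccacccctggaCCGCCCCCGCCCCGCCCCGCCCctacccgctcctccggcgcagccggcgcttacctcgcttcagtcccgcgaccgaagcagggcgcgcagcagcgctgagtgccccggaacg
KIT, chr4:54657707-54658006, plus strand: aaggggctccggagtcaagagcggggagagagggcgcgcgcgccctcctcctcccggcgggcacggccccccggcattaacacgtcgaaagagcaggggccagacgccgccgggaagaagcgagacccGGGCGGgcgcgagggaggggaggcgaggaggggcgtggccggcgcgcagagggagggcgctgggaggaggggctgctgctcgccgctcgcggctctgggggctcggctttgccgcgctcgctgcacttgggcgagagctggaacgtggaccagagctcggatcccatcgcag
GC boxes were matched at 4 places in the EML4 window, 5 in ALK, 5 in RET and 1 in KIT, and some of these matches adjoin or share a base. Of 35116 promoters of the same length, 45.0% hold a GC box. EML4 also held the E-box, which 7.26% of promoters hold. No ETS core, AP-1 site, forkhead site or TATA box was matched in these 4 windows, against 10.3%, 7.71%, 3.42% and 11.5% of all promoters. All 4 windows were rich in G and C, at 75.7% in EML4, 71.0% in ALK, 78.7% in RET and 74.3% in KIT, where the median promoter had 58.7%. A match is a description of letters, not of binding.

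Human libraries held 10688632 to 19065656 reads, recovered from the deposited values, and mouse reads made up 5.5 to 28.95% of all reads, with medians of 6.32%, 15.3% and 18.7% in NSG naive, 2 weeks and 6 weeks and of 8.93%, 12.7% and 28.6% in hHGF-NSG, where the libraries at 2 weeks overlap the naive ones. The FPKM rest on a library size that the authors scaled: its ratio to the plain total was 0.876 to 0.937 in naive and 0.986 to 1.111 in treated libraries. With plain totals the median tested gene shifted by 0.22, 0.22, 0.20 and 0.16 on the log2 scale (2 weeks in NSG and hHGF-NSG, then 6 weeks in NSG and hHGF-NSG), against 0.024 to 0.032 as deposited. The share of calls that were higher went to 63.1 to 68.7%. Changes are therefore to be read relative to that median. One library stood apart from its label: NSG naive replicate 1 held 43 reads of human HGF, where no other NSG library held more than 6. Results that rest on NSG naive tumours are given with and without it where this changes a call or a value markedly. Epithelial markers were abundant in the human reads, with a summed FPKM of the 10 markers of 2572 to 4018 in naive and 1245 to 1747 in treated libraries. Of 9 tested, 1 or 2 were higher and 5 to 7 lower after treatment. NKX2-1, the lung lineage factor, rose in every treated group (log2 change 1.42 to 1.98), whereas KRT8, KRT18 and KRT19, keratins of simple epithelium, fell, as did NAPSA, and SFTPC, which marks alveolar type II cells, was at or near 0. Of the 7 fibroblast and mural markers, DCN, PDGFRA and PDGFRB were at or near 0, but the 7 summed to 26.8 to 112.4 in naive and 5.19 to 16.4 in treated libraries. Nearly all of that was COL1A1 and LUM, the 2 tested, which fell in all 4 comparisons, while COL1A2 and COL3A1 had group means of at most 0.300 and 0.465. The 8 leukocyte and endothelial markers summed to 2.37 to 4.08 over all libraries, nearly all of it CDH5 and VWF, with PTPRC, CD3E and CD68 at or near 0. CDH5 was called lower at 2 weeks in both hosts and at 6 weeks in NSG (changes of -0.56, -0.32 and -0.49), and VWF higher at 2 weeks in both hosts and at 6 weeks in hHGF-NSG (0.54, 0.67 and 0.38). The CDH5 call in hHGF-NSG ended with plain totals (-0.16) and without naive replicate 2 (-0.26) or 3 (-0.27) or 2 weeks replicate 1 (-0.24) or 2 (-0.29). The VWF call at 6 weeks ended without hHGF-NSG naive replicate 1 (0.377) or 2 (0.33) or 6 weeks replicate 1 (0.37) or 2 (0.31). The part of cell makeup in the results below was not tested.

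**Figure D1:**
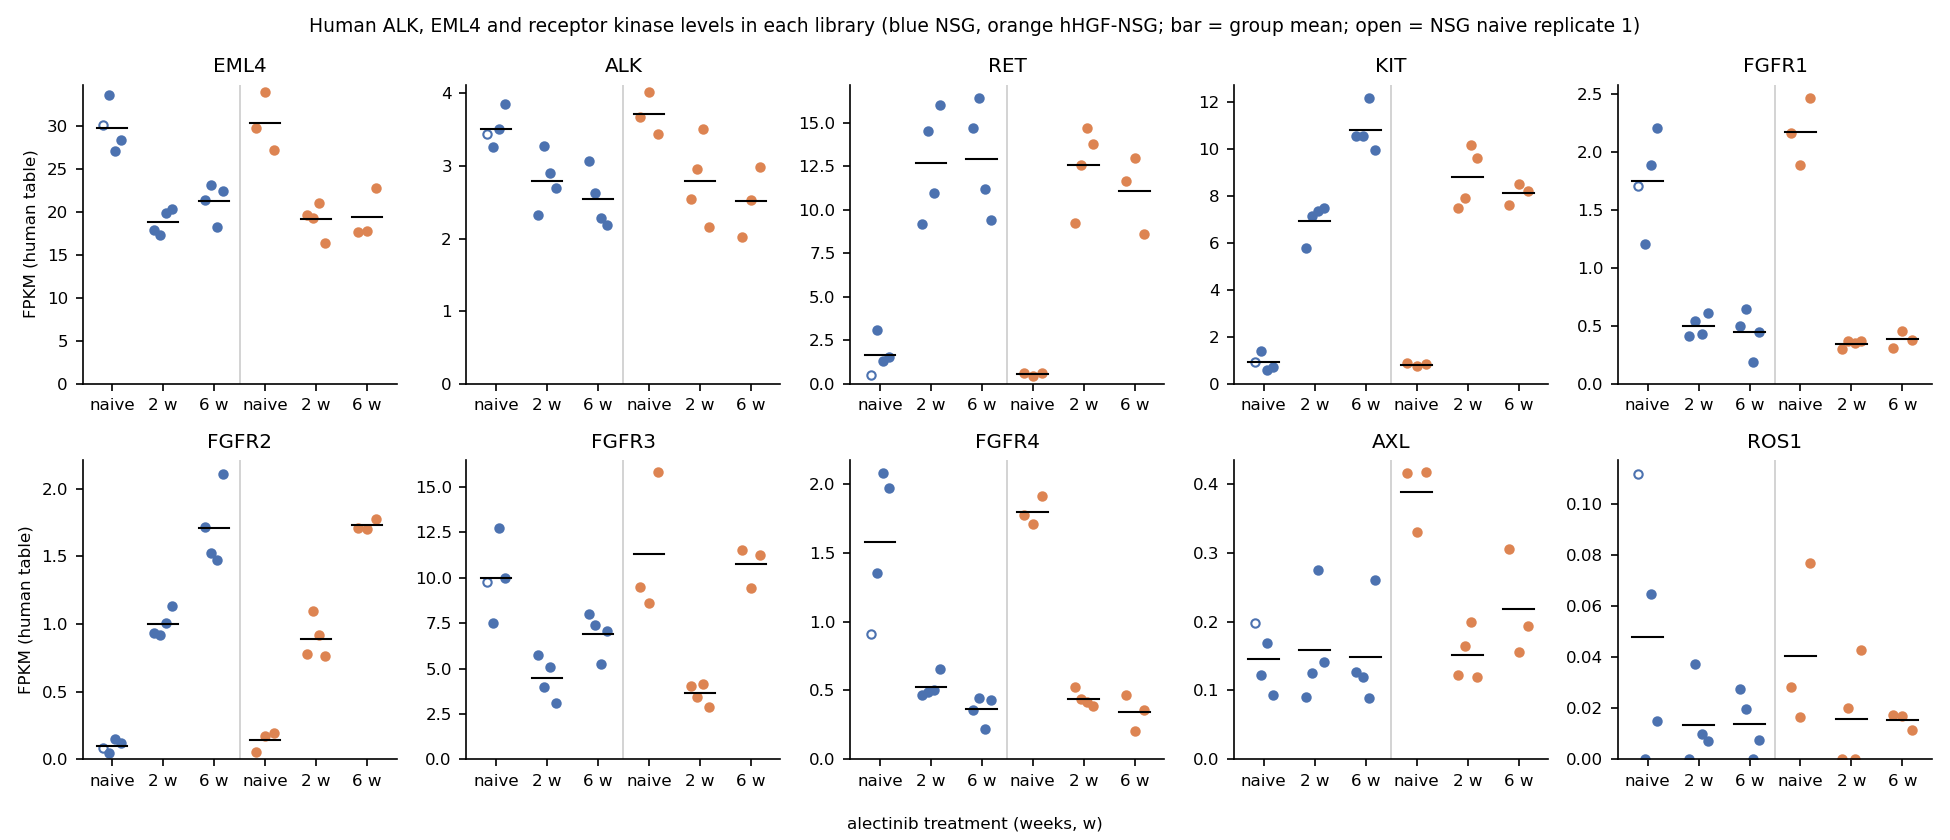
Deposited FPKM of the 10 human genes (vertical axis, linear, each panel on its own scale) in every library, grouped by host and weeks of alectinib. Points are libraries, bars are group means, and the open point is NSG naive replicate 1. RET, KIT and FGFR2 stand higher in every treated library than in any naive one, FGFR1 and FGFR4 lower, and AXL and ROS1 reach at most 0.418 and 0.112.

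Treatment moved nearly all tested members. After 2 weeks in NSG, 3 members were higher and 4 lower (limma on log2(FPKM + 1), Benjamini-Hochberg adjusted p below 0.05 over all 16029 tested genes), where 56.1% of all tested genes were called (28.1% higher, 28% lower). After 2 weeks in hHGF-NSG the counts were 3 higher and 5 lower of 8, against 54.1% (27.5% higher, 26.6% lower). After 6 weeks they were 3 higher and 5 lower in NSG, against 57.6% (28.8% in each direction), and 3 higher and 4 lower in hHGF-NSG, against 51.3% (25.9% higher, 25.5% lower). Treated and naive libraries did not overlap for 7 of the 8 members in each of the 4 comparisons, against 48.2% of all tested genes in NSG and 55.8% in hHGF-NSG at 2 weeks, and 47.6% and 57.2% at 6 weeks. Of the members, 4 passed the filter on low values only through the groups where they are high: FGFR1 and FGFR4 through naive libraries, FGFR2 and KIT through treated ones (KIT reached 1 FPKM in 1 naive and 15 treated libraries). A difference was therefore likely for them, and the counts support nothing beyond the single values. The same limit holds for genes named below that reach 1 FPKM mainly in naive or mainly in treated libraries. In bulk tumours, fewer cells of a type and less RNA per cell cannot be told apart.

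EML4, which supplies the promoter and the oligomerizing front of the fusion, was the most abundant member and fell under alectinib. Its FPKM were 30.1, 33.6, 27.1 and 28.3 in NSG naive tumours, 17.9, 17.3, 19.9 and 20.3 at 2 weeks and 21.3, 23.1, 18.2 and 22.4 at 6 weeks. In hHGF-NSG they were 29.8, 33.9 and 27.2 in naive tumours, 19.6, 19.3, 21.1 and 16.4 at 2 weeks and 17.7, 17.8 and 22.7 at 6 weeks. No treated library reached the lowest naive one in either host, and the 4 treated groups overlapped each other. The log2 change was -0.63 ± 0.10 (SE) at 2 weeks in NSG (adjusted p = 2.86e-05), -0.64 ± 0.11 in hHGF-NSG (6.42e-05), and -0.47 ± 0.10 (0.000648) and -0.62 ± 0.12 (0.000201) at 6 weeks. With plain library totals these became -0.37, -0.40, -0.25 and -0.45. The call at 6 weeks in NSG then ended (limma adjusted p = 0.0686, range over its alternatives 0.000467 to 0.0686). Relative to the median gene EML4 stood at -0.59, -0.62, -0.45 and -0.61 with plain totals. A scaling moves all genes of a library alike, so values relative to the median hardly depend on it. They do not test the fall.

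ALK, the target of the drug, was present at an FPKM of 2.02 to 4.02 and was lower at 6 weeks in both hosts. It was 3.43, 3.26, 3.51 and 3.85 in NSG naive, 2.32, 3.27, 2.90 and 2.69 at 2 weeks and 3.06, 2.63, 2.29 and 2.18 at 6 weeks. In hHGF-NSG it was 3.67, 4.02 and 3.44 in naive tumours, 2.54, 2.96, 3.51 and 2.16 at 2 weeks and 2.02, 2.54 and 2.99 at 6 weeks. The libraries at 6 weeks lay below all naive ones, whereas at 2 weeks 1 library in each host reached into the naive range. The values rest on 218 to 474 reads per library. The change passed the test at 6 weeks, with -0.36 ± 0.11 in NSG (adjusted p = 0.0114) and -0.43 ± 0.13 in hHGF-NSG (0.00966), and at 2 weeks in hHGF-NSG, with -0.32 ± 0.12 (0.0317). In NSG at 2 weeks it was -0.25 ± 0.11 and did not pass (adjusted p = 0.0638). All 3 calls ended with plain library totals, where the changes were -0.18 (adjusted p = 0.218), -0.29 (0.0945) and -0.13 (0.416), the highest adjusted p over the alternatives of each. Relative to the median gene ALK stood at -0.28, -0.35, -0.39 and -0.45 as deposited (2 weeks in NSG and hHGF-NSG, then 6 weeks). With plain totals these were -0.27, -0.35, -0.38 and -0.45. The likeness is built in, since a scaling multiplies all genes of a library by 1 factor. It therefore does not test whether the fall of ALK survives the other scaling. The call at 2 weeks in hHGF-NSG also ended without hHGF-NSG naive replicate 1 (-0.33, adjusted p = 0.0639), naive replicate 2 (-0.28, 0.116), 2 weeks replicate 1 (-0.29, 0.0739) or 2 weeks replicate 4 (-0.24, 0.114). The call at 6 weeks in hHGF-NSG ended without 6 weeks replicate 1 (-0.33, 0.0673), and the change at 2 weeks in NSG passed without 2 weeks replicate 2 (-0.31, 0.0361).

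EML4 FPKM exceeded ALK FPKM in every library, which does not give a ratio of message copies. The ALK FPKM divide by 7362 bases, although such a fusion keeps 2141 bases of the ALK reference transcript. EML4 reads can also come from the unrearranged copy. The mean ratio of EML4 to ALK FPKM was 8.53 ± 1.32 (SD) in NSG naive, 6.85 ± 1.11 at 2 weeks and 8.49 ± 1.38 at 6 weeks. The ratio in hHGF-NSG was 8.15 ± 0.269, 6.96 ± 0.837 and 7.79 ± 0.877. On the log2(FPKM + 1) scale the difference of ALK minus EML4 was higher at 2 weeks by 0.38 in NSG and by 0.32 in hHGF-NSG, each with an exact two-sided permutation p of 0.0286, the smallest that these libraries allow, and an adjusted p over the 4 comparisons of 0.0571. With so few libraries this does not show that the levels moved alike. At 6 weeks the differences were 0.11 (exact permutation p = 0.429) and 0.19 (exact permutation p = 0.1, the smallest that 3 against 3 libraries allow). Adding 1 damps changes of ALK more than those of the more abundant EML4, so the scale itself adds to these differences. Treated over naive mean FPKM was 0.796 for ALK and 0.633 for EML4 at 2 weeks in NSG, and 0.753 and 0.6305 in hHGF-NSG. At 6 weeks these ratios were 0.723 and 0.714 in NSG, and 0.678 and 0.640 in hHGF-NSG.

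The genes beside both loci did not share 1 direction. ALK lies at chr2:29192774-29921566 and EML4 at chr2:42169350-42332548. Near ALK, CLIP4, TOGARAM2, YPEL5 and LBH were higher in all 4 treated groups, with LBH, a transcriptional cofactor, going from 9.40 to 53.2 FPKM in NSG tumours treated for 6 weeks (2.38), while WDR43, a ribosome biogenesis factor, was lower (-0.81 to -1.14). LCLAT1 was lower in NSG (-0.49 and -0.31). The call at 6 weeks ended without NSG naive replicate 2 (-0.24), 6 weeks replicate 1 (-0.27) or 6 weeks replicate 3 (-0.28), and both calls ended with plain totals (-0.26 and -0.12). Near EML4, COX7A2L, a factor of respiratory supercomplexes whose gene ends 998 bases beyond EML4 on the other strand, did not pass in any of the 4 comparisons (22.8 FPKM in NSG naive, 21.1 at 2 weeks and 24.3 at 6 weeks). SLC8A1, a sodium and calcium exchanger, and ZFP36L2, an RNA-decay factor, were higher in all 4, with changes of 0.46 to 0.75 and 0.54 to 0.90. MTA3 stood at 0.17 to 0.28, PKDCC at -0.37 to -0.81 and THUMPD2 at -0.41 to 0.16. The labels do not say whether reads were counted by strand.

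The relatives of both genes moved apart. EML1 and EML2, which bind microtubules as EML4 does, rose in all 4 treated groups, EML1 from 0.643 to 3.16 FPKM in NSG after 2 weeks (a change of 1.33) and from 0.404 to 3.25 in hHGF-NSG (1.60), and EML2 by 0.67 to 0.99. EML6 rose except at 6 weeks in hHGF-NSG (0.69, 0.68, 0.35 and 0.19). EML3 fell by 0.29, 0.44, 0.68 and 0.45 (2 weeks in NSG and hHGF-NSG, then 6 weeks). Of its calls, that at 6 weeks in NSG alone held with plain totals, and that at 2 weeks in NSG also ended without NSG naive replicate 3 (-0.21), naive replicate 4 (-0.24) or 2 weeks replicate 3 (-0.25). Of the 5 other EML genes listed, 4 were tested, and 3 were higher and 1 lower in each comparison but the last, where 2 were higher, against 51.3 to 57.6% of all genes called. Of the ALK ligands, ALKAL1 was present at 0.443 to 1.61 FPKM in the group means and rose by 0.69 and 0.86 after 6 weeks, and by 0.51 and 0.69 after only 2. The call at 2 weeks in NSG ended without NSG naive replicate 1 (0.43), naive replicate 3 (0.45), 2 weeks replicate 1 (0.49) or 2 weeks replicate 2 (0.47). ALKAL2 did not exceed a mean of 0.0235. LTK, the receptor most related to ALK, stood at 5.74 FPKM in NSG naive, 5.18 at 2 weeks and 4.83 at 6 weeks. Its changes were -0.11 and -0.34 at 2 weeks (NSG first) and -0.20 and -0.30 at 6 weeks. The second of these passed (adjusted p = 0.0194), and that call ended with plain totals (-0.12) and without hHGF-NSG naive replicate 3 (-0.30) or 2 weeks replicate 4 (-0.30).

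**Figure D2:**
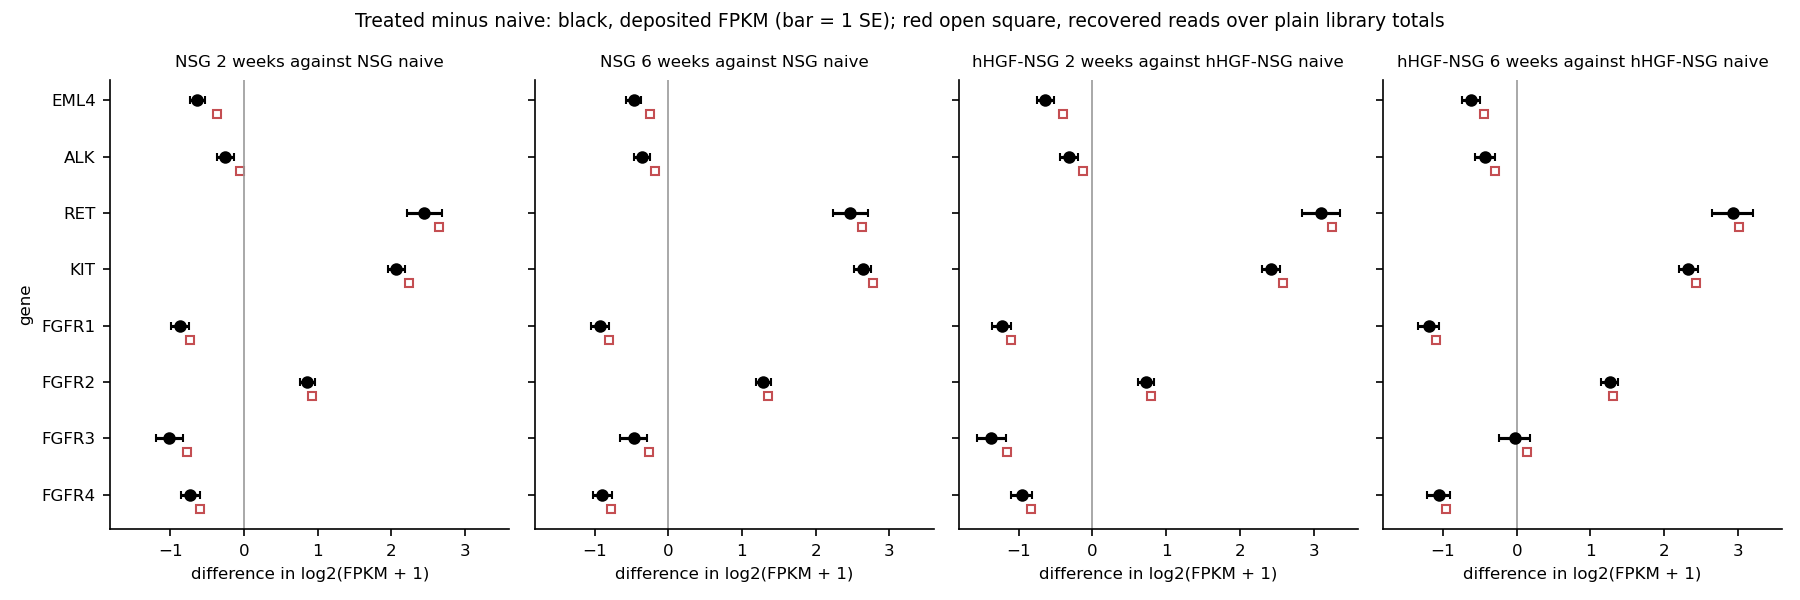
Difference in log2(FPKM + 1) between treated and naive tumours (horizontal axis) for the 8 tested members, 1 panel per host and time. Black points are the deposited FPKM with 1 SE, and red open squares are recovered reads over plain library totals. The squares sit to the right of the points, which moves ALK toward 0 and leaves RET and KIT above 2 in all 4 panels.

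RET is the receptor of the glial cell line-derived neurotrophic factor family, itself an oncogene in lung cancer when fused, and a target of alectinib too. On the log2(FPKM + 1) scale it rose most among the members in 3 of the 4 comparisons. In NSG naive tumours its FPKM were 0.497, 3.11, 1.32 and 1.56, against 9.17, 14.5, 10.98 and 16.0 at 2 weeks and 14.7, 16.4, 11.2 and 9.43 at 6 weeks. In hHGF-NSG they were 0.630, 0.464 and 0.603 in naive tumours, 9.22, 12.6, 14.7 and 13.8 at 2 weeks and 11.6, 12.98 and 8.62 at 6 weeks. Every treated library exceeded every naive one, and the 4 treated groups overlapped. The log2 change was 2.44 ± 0.24 at 2 weeks in NSG (adjusted p = 2.65e-08), 3.10 ± 0.26 in hHGF-NSG (2.62e-09), 2.47 ± 0.24 at 6 weeks in NSG (2.25e-08) and 2.93 ± 0.27 in hHGF-NSG (2.07e-08). As a ratio of mean FPKM this was 7.81 and 22.2 at 2 weeks and 7.97 and 19.6 at 6 weeks. By that ratio RET rose most among the members in hHGF-NSG, whereas FGFR2 rose most in NSG (9.77 and 16.7). The lower RET ratios in NSG go with a higher naive mean of 1.62 ± 1.09 (SD) against 0.566 ± 0.089 in hHGF-NSG. That difference of -0.65 did not pass (limma adjusted p = 0.457). NSG naive replicate 1, at 0.497, lay within the naive hHGF-NSG range, and the other 3 NSG naive libraries lay above it. Without that library the host difference was -0.89 (adjusted p = 0.109), and the changes in NSG were 2.21 and 2.23. The difference between hosts in the response was 0.65 ± 0.35 at 2 weeks (adjusted p = 0.928) and 0.46 ± 0.36 at 6 weeks (0.612), and without that library 0.89 (0.491) and 0.70 (0.308).

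RET signals only with a GFRA co-receptor that holds the ligand. Of the 4 GFRA genes and GFRAL, which carries the GDF15 signal to RET, GFRA3 was the one with a measurable level. Its mean FPKM went from 3.45 in NSG naive to 5.40 and 5.32, and from 2.28 in hHGF-NSG naive to 5.39 and 6.18. The log2 changes were 0.55 and 0.96 at 2 weeks (NSG first) and 0.54 and 1.11 at 6 weeks, all called. GFRA1 and GFRA2 had means of at most 0.0235, and GFRA4 and GFRAL were listed at 0. Among the ligands, ARTN, which pairs with GFRA3, stood between 0.483 and 1.08 and did not pass in any comparison. PSPN, the ligand of GFRA4, rose from 0.993 to 2.75 in NSG and from 0.929 to 2.87 in hHGF-NSG at 2 weeks (0.93 and 1.001), with changes of 0.85 and 0.78 after 6 weeks. NRTN rose at 2 weeks in NSG (0.77, adjusted p = 0.0227). That call ended without NSG naive replicate 1 (0.65), naive replicate 2 (0.69), 2 weeks replicate 1 (0.68) or 2 weeks replicate 2 (0.63), and NRTN stood at 0.46, 0.12 and 0.67 elsewhere. GDNF was at 0.393 or less. GDF15, a stress-induced cytokine, was the most abundant ligand. It fell from 140 to 15.7 and 15.1 FPKM in NSG and from 141 to 14.0 and 19.7 in hHGF-NSG. The log2 changes were -3.03 and -3.24 at 2 weeks (NSG first) and -3.08 and -2.77 at 6 weeks. Of the 10 co-receptors and ligands listed, 5 were tested, of which 3 were higher and 1 lower at 2 weeks in NSG, and 2 higher and 1 lower in each of the other comparisons, a share near the 51.3 to 57.6% of all genes called.

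KIT, the receptor of stem cell factor, rose from low naive levels in both hosts. In NSG it was 0.933, 1.40, 0.601 and 0.721 in naive tumours, 5.78, 7.16, 7.36 and 7.49 at 2 weeks and 10.5, 10.6, 12.2 and 9.95 at 6 weeks. In hHGF-NSG it was 0.876, 0.742 and 0.822 in naive tumours, 7.47, 7.90, 10.2 and 9.63 at 2 weeks and 7.63, 8.50 and 8.21 at 6 weeks. Naive and treated libraries were far apart, and within NSG all libraries at 6 weeks exceeded all at 2 weeks. The log2 change was 2.07 ± 0.12 and 2.42 ± 0.12 at 2 weeks (NSG first, adjusted p = 4.80e-12 and 1.46e-12) and 2.64 ± 0.12 and 2.33 ± 0.13 at 6 weeks (1.27e-13 and 1.25e-11). Ratios of mean FPKM were 7.60 and 10.8 at 2 weeks and 11.8 and 9.98 at 6 weeks. KITLG, the gene of its ligand, was already at 8.16 and 7.21 FPKM in naive tumours and rose at 2 weeks to 12.4 and 11.99 (0.56 and 0.67), while at 6 weeks it stood at 9.74 and 8.27 and did not pass (0.24 and 0.18).

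The 4 fibroblast growth factor receptors did not move together. FGFR3 was the most abundant, at 7.49 to 15.8 FPKM in the naive libraries, and fell at 2 weeks. In NSG its FPKM went from 9.78, 7.49, 12.7 and 9.9995 to 5.73, 3.96, 5.06 and 3.09 at 2 weeks and to 7.98, 7.37, 5.26 and 7.07 at 6 weeks. In hHGF-NSG it went from 9.47, 8.59 and 15.8 to 4.04, 3.45, 4.17 and 2.88 and then to 11.5, 9.44 and 11.3. At 2 weeks no library reached the naive range, and at 6 weeks the naive and treated libraries overlapped in both hosts. The log2 change was -1.01 ± 0.18 and -1.37 ± 0.20 at 2 weeks (adjusted p = 8.28e-05 and 6.08e-06), -0.47 ± 0.18 at 6 weeks in NSG (0.0348) and -0.024 ± 0.21 in hHGF-NSG (0.935).

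The lower level at 6 weeks in NSG was not firm. Its call ended with plain totals (-0.26, adjusted p = 0.259), without a filter (0.0792, the same change), and without NSG naive replicate 1 (-0.47, 0.0569), naive replicate 3 (-0.35, 0.127), naive replicate 4 (-0.46, 0.0640), 6 weeks replicate 3 (-0.36, 0.118) or 6 weeks replicate 4 (-0.48, 0.0520), where FGFR3 had adjusted p of 0.0130 to 0.259 over all alternatives. From 2 to 6 weeks FGFR3 rose by 1.35 ± 0.20 in hHGF-NSG (adjusted p = 8.80e-05). In NSG it rose by 0.55 ± 0.18 (0.0383), a call that ended with plain totals (0.52), without a filter (0.55), and without 2 weeks replicate 2 (0.51) or 4 (0.42) or 6 weeks replicate 1 (0.48), 2 (0.52) or 4 (0.54). At 6 weeks the difference of FGFR3 between hosts, 0.58 ± 0.20, did not pass (adjusted p = 0.279).

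FGFR1 and FGFR4 fell to low levels. FGFR1, a receptor typical of mesenchymal cells, was 1.71, 1.20, 1.88 and 2.21 FPKM in NSG naive, 0.409, 0.540, 0.432 and 0.610 at 2 weeks and 0.494, 0.647, 0.188 and 0.446 at 6 weeks. In hHGF-NSG it was 2.16, 1.88 and 2.47, then 0.296, 0.371, 0.350 and 0.370, then 0.311, 0.458 and 0.381. The log2 change was -0.87 ± 0.12 and -1.23 ± 0.13 at 2 weeks and -0.93 ± 0.12 and -1.19 ± 0.14 at 6 weeks (highest adjusted p = 4.97e-06 of the 4). The log2(FPKM + 1) scale understates a fall at levels this low. Ratios of mean FPKM were 0.28 and 0.16 at 2 weeks and 0.25 and 0.18 at 6 weeks. FGFR4, which answers to FGF19, was 0.908, 1.35, 2.08 and 1.97 in NSG naive, 0.466, 0.488, 0.505 and 0.653 at 2 weeks and 0.361, 0.448, 0.222 and 0.434 at 6 weeks. In the other host it was 1.77, 1.71 and 1.91, then 0.525, 0.438, 0.414 and 0.384, then 0.467, 0.207 and 0.358. Naive and treated libraries did not overlap for either receptor, and the lowest naive FGFR4 value was NSG naive replicate 1. The FGFR4 changes were -0.73 ± 0.13 and -0.96 ± 0.14 at 2 weeks and -0.89 ± 0.13 and -1.06 ± 0.15 at 6 weeks (highest adjusted p = 8.43e-05), and -0.87 and -1.03 in NSG without that library. With all libraries, its ratios of mean FPKM were 0.33 and 0.25 at 2 weeks and 0.23 and 0.19 at 6 weeks.

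FGFR2, an epithelial receptor, went the other way and rose with time. It was 0.0868, 0.0502, 0.153 and 0.118 FPKM in NSG naive, 0.932, 0.917, 1.01 and 1.14 at 2 weeks and 1.72, 1.53, 1.47 and 2.11 at 6 weeks. In hHGF-NSG it was 0.0585, 0.173 and 0.195, then 0.776, 1.10, 0.919 and 0.764, then 1.71, 1.70 and 1.78. The 3 states did not overlap in either host. The log2 change was 0.86 ± 0.10 and 0.72 ± 0.11 at 2 weeks (adjusted p = 3.52e-07 and 9.48e-06) and 1.29 ± 0.10 and 1.26 ± 0.12 at 6 weeks (8.78e-10 and 1.51e-08), a scale that understates a rise from so low a level: the ratios of mean FPKM were 9.77 and 6.25 at 2 weeks and 16.7 and 12.2 at 6 weeks.

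**Figure D3:**
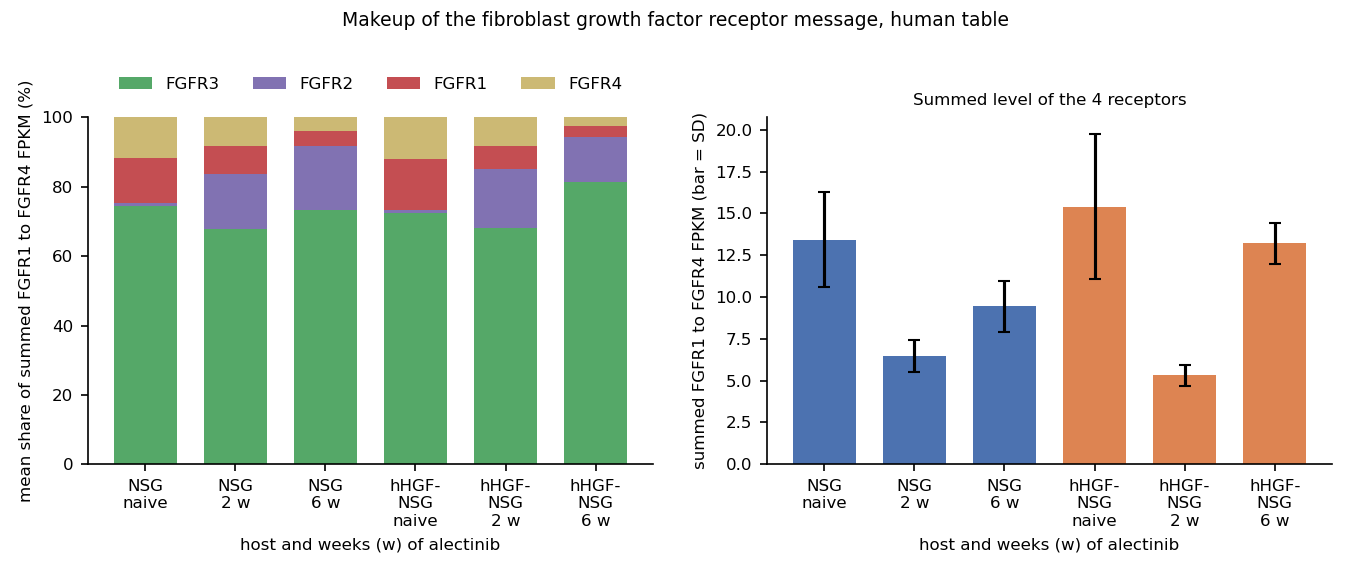
Left, mean share of each receptor in the summed FGFR1 to FGFR4 FPKM of a library (stacked bars, %), by host and weeks of alectinib. Right, the summed FPKM (bars are group means, error bars SD). FGFR2 goes from under 1% to 13.2 to 18.3% of the sum, FGFR3 remains the largest part, and the sum is lowest at 2 weeks.

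Summed over the 4 receptors, the message was 13.4 ± 2.85 FPKM (SD) in NSG naive, 6.48 ± 0.949 at 2 weeks and 9.44 ± 1.55 at 6 weeks, and 15.4 ± 4.35, 5.31 ± 0.644 and 13.2 ± 1.22 in hHGF-NSG. FGFR3 made up 74.5% of it in NSG naive, 67.9% at 2 weeks and 73.3% at 6 weeks, and 72.5%, 68.2% and 81.3% in hHGF-NSG. The share of FGFR2 went from 0.733% to 15.7% and 18.3% in NSG and from 0.930% to 16.8% and 13.2% in hHGF-NSG. FGFR1 and FGFR4 each made up 11.7 to 14.5% in naive tumours and 2.56 to 4.56% at 6 weeks.

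The tumour cells transcribed few fibroblast growth factors. Of 18 ligand genes, 2 were tested. FGF9, which prefers FGFR3, was 1.27 FPKM in NSG naive, 1.58 at 2 weeks and 2.96 at 6 weeks, and rose at 6 weeks in NSG (0.81, adjusted p = 2.55e-05). The hHGF-NSG means were 1.85, 2.00 and 2.77, a rise at 6 weeks of 0.41 (0.0311) that ended without hHGF-NSG naive replicate 1 (0.33), naive replicate 3 (0.36), 6 weeks replicate 2 (0.38) or 6 weeks replicate 3 (0.34). FGF19, the FGFR4 ligand, fell from 1.25 to 0.0930 and 0.0450 in NSG (-1.03 and -1.09) and from 0.642 to 0.171 and 0.167 in hHGF-NSG (-0.49 and -0.49). The hHGF-NSG calls ended without naive replicate 3 (-0.41 at each time), and that at 6 weeks also without 6 weeks replicate 2 (-0.46). At these treated means no treated library can have reached 1 FPKM. FGF19 therefore passed the filter through naive libraries alone, and a fall was likely.

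Of 8 listed co-receptors and modulators of these receptors, 4 were tested, and all 4 fell in all 4 comparisons, where 25.5 to 28.8% of all genes were called lower. FGFBP1, a carrier that releases FGFs from the matrix, was at 20.3 FPKM in naive tumours of either host. It fell to 1.77 and 0.960 in NSG and to 1.35 and 0.592 in hHGF-NSG. The log2 changes were -2.95 and -3.17 at 2 weeks (NSG first) and -3.48 and -3.71 at 6 weeks. FGFRL1, a receptor without a kinase, fell from 10.5 and 13.03 to 2.62 and 2.498 at 2 weeks (-1.68 and -2.01) and by -1.55 and -1.60 at 6 weeks. SULF1, a heparan sulfate sulfatase, and IL17RD, a feedback inhibitor of FGF signalling, fell by smaller amounts, -0.45 to -0.71 and -0.55 to -0.69. KL and KLB, the Klotho co-receptors, were at means of 0.381 or less.

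AXL, the receptor of GAS6 and a much discussed bypass kinase, was all but absent from the human reads. Its FPKM were 0.198, 0.123, 0.169 and 0.0929 in NSG naive, 0.0903, 0.126, 0.275 and 0.142 at 2 weeks and 0.127, 0.120, 0.0891 and 0.260 at 6 weeks. In hHGF-NSG they were 0.415, 0.330 and 0.418 in naive tumours, 0.123, 0.164, 0.200 and 0.120 at 2 weeks and 0.305, 0.155 and 0.194 at 6 weeks. The hHGF-NSG naive libraries lay above all others, on counts of 6 to 32 reads per library. AXL did not reach the filter. Fitted without a filter it stood at -0.27 at 2 weeks in hHGF-NSG (adjusted p = 0.00279) and at -0.19 at 6 weeks (0.0471), at 0.28 between naive hosts (0.143), and at 0.014 and 0.0026 in NSG (adjusted p = 1 for both). These are differences of levels below 1 FPKM. ROS1, a fusion oncogene in other lung cancers, had 0 to 12 reads per library and a highest FPKM of 0.112, in NSG naive replicate 1. A count of 0 allows up to 3 reads, by counting error alone. Its 4 treated group means were 0.0137 to 0.0158 and its naive means 0.0479 and 0.0406, with overlapping libraries in both hosts, and no difference was detectable at this depth (changes of -0.047 and -0.035 without a filter at 2 weeks, adjusted p = 0.265 and 0.456).

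The relatives of AXL moved in opposite directions, and of 4 family members and ligands tested, 2 were higher and 1 lower at 2 weeks in NSG, 2 and 2 in hHGF-NSG, and 1 and 1 at 6 weeks in each host, where 51.3 to 57.6% of all genes were called. MERTK rose from 1.08 FPKM to 3.05 and 3.74 in NSG and from 1.31 to 2.80 and 3.58 in hHGF-NSG. The MERTK changes were 0.98 and 0.72 at 2 weeks (NSG first) and 1.20 and 0.99 at 6 weeks. TYRO3 fell from 1.37 to 0.577 and 0.394 in NSG and from 1.21 to 0.585 and 0.455 in hHGF-NSG. The TYRO3 changes were -0.59 and -0.47 at 2 weeks (NSG first) and -0.77 and -0.60 at 6 weeks. Of their ligands, PROS1 rose at 2 weeks, from 0.349 to 0.991 and from 0.479 to 1.13 (0.56 and 0.53), and did not pass at 6 weeks. GAS6 was 0.928, 0.877 and 0.861 in NSG and 2.51, 0.843 and 1.67 in hHGF-NSG, and its change at 2 weeks in hHGF-NSG, -0.72 (adjusted p = 0.0450), became -0.22 without hHGF-NSG naive replicate 3 and ended under each other setting tried except median-ratio scaling, and without naive replicate 1 (-0.78) or any single library at 2 weeks (-0.66 to -0.76). NELL2, a ligand of ROS1, fell at 6 weeks, from 5.13 to 2.88 in NSG (-0.66) and from 6.93 to 3.17 in hHGF-NSG (-0.93), and did not pass at 2 weeks.

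**Figure D4:**
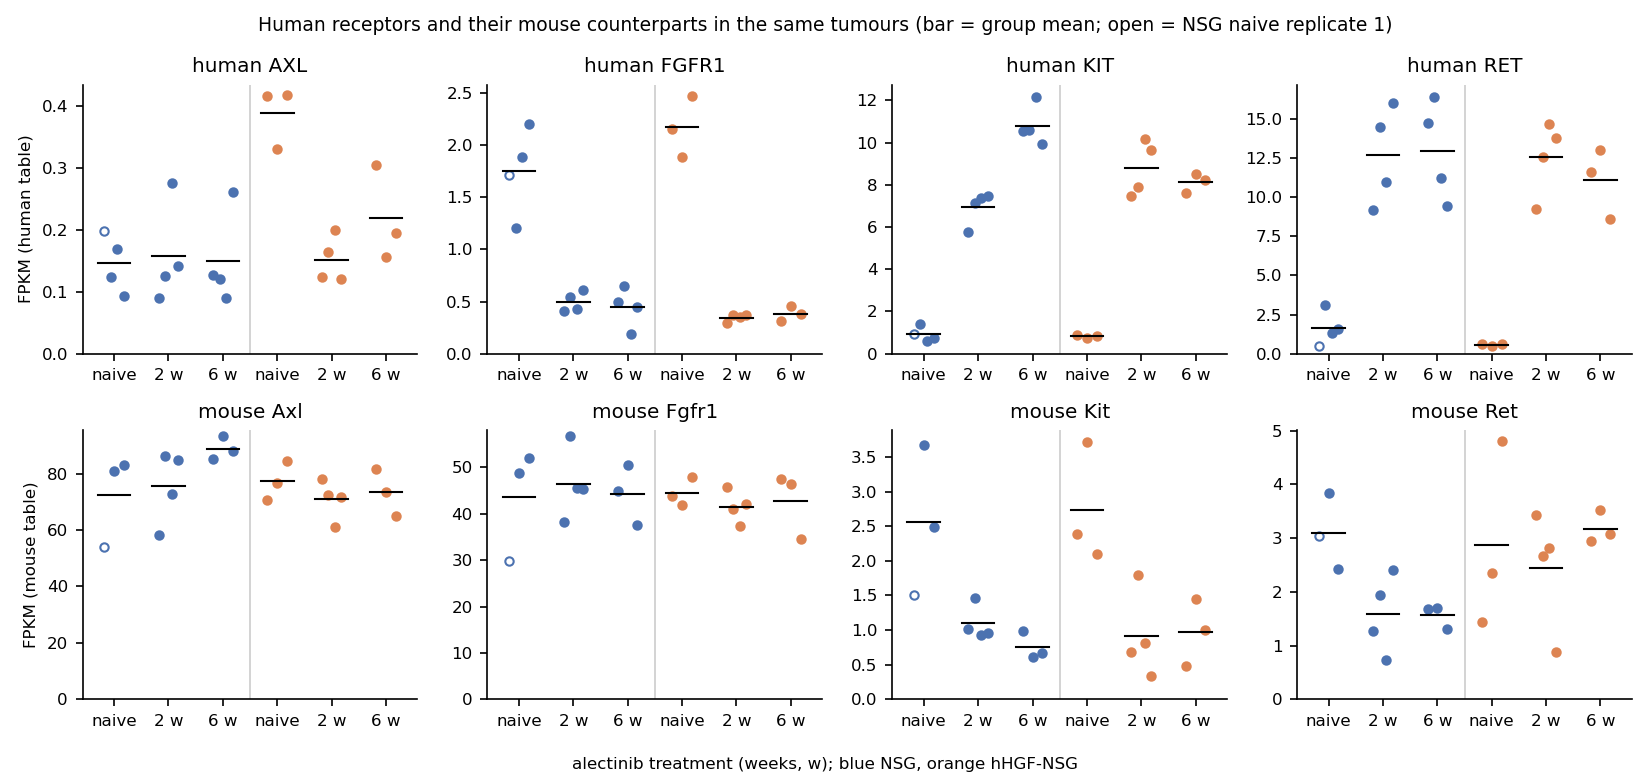
FPKM of AXL, FGFR1, KIT and RET in the human table (top) and of their mouse counterparts in the mouse table (bottom), by host and weeks of alectinib, with linear axes from 0. Mouse Axl and Fgfr1 stand at 53.8 to 93.4 and 29.9 to 56.7 over all libraries, and human FGFR1 falls. Levels are not comparable between the rows.

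The mouse reads, from host tissue in the same tumours, held abundant Axl and Fgfr1. Mouse values were used from 20 libraries, without the second naive and the fourth 6-week NSG tumour. FPKM of the 2 tables rest on separate library sizes, so levels are not compared across them. Mouse Axl was 53.8, 80.9 and 83.0 in NSG naive and 53.8 to 93.4 over all libraries. Mouse Fgfr1 was 29.9, 48.9 and 52.0 in NSG naive and 29.9 to 56.7 over all libraries, and neither passed in any treated group, with changes of -0.12 to 0.31. Mouse Gas6, the ligand of AXL, had group means of 274 to 360 FPKM and mouse Pros1 of 59.2 to 75.9, again with no change that passed. Mouse Kit went opposite to human KIT: its means were 2.56, 1.10 and 0.756 in NSG tumours and, in the other host, 2.73, 0.909 and 0.977. It was called lower in hHGF-NSG at 2 weeks (-0.996) and 6 weeks (-0.92) and in NSG at 6 weeks (-0.98), but each call ended when some single library was left out: in NSG without naive replicate 3 (-0.76), naive replicate 4 (-0.97), 6 weeks replicate 2 (-0.92) or 3 (-0.94). In hHGF-NSG the 2 weeks call ended without naive replicate 1 (-1.06) or 2 (-0.82) or 2 weeks replicate 1 (-0.95), 3 (-0.99) or 4 (-0.84), and the 6 weeks call without naive replicate 1 (-0.98) or 2 (-0.74) or 6 weeks replicate 1 (-0.73) or 3 (-0.94). Mouse Kitl stood at 6.55 to 12.3 in the group means and did not pass.

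Mouse Fgfr2 was the member counterpart that rose, from 0.556 to 2.48 and 2.21 FPKM in NSG (1.155 and 1.03, adjusted p = 0.00442 and 0.00716), while in hHGF-NSG it went from 1.19 to 2.48 and 2.00 and did not pass (0.71 and 0.50). Mouse Fgf10, a stromal ligand of FGFR2, rose from 0.671 to 2.89 and 6.61 in hHGF-NSG (1.15 and 2.13), and from 1.42 to 2.05 and 4.09 in NSG, called at 6 weeks (1.08). The NSG call ended without naive replicate 4 (0.92), 6 weeks replicate 2 (0.99) or 6 weeks replicate 3 (0.98), and the hHGF-NSG call at 2 weeks without naive replicate 1 (1.11) or 2 weeks replicate 3 (0.90). Mouse Fgf9 rose in NSG (1.27 and 1.32), and both calls ended without naive replicate 4 (0.92 and 0.96), that at 2 weeks also without 2 weeks replicate 1 (1.14). Mouse Gdnf was called at 2 weeks in NSG (1.13), and the call ended without naive replicate 3 (0.97), naive replicate 4 (1.11), 2 weeks replicate 2 (0.87) or 2 weeks replicate 4 (1.11). Of the 10 mouse counterparts 7 were tested and of the 29 mouse ligands 15. At 2 weeks, 1 counterpart and 2 ligands were higher in NSG, where 7.8% of all mouse genes were called, and 1 counterpart was lower and 1 ligand higher in hHGF-NSG, against 7.06%. At 6 weeks the counts were 1 higher and 1 lower counterpart and 2 higher ligands in NSG, against 17.4%, and 1 lower counterpart and 1 higher ligand in hHGF-NSG, against 17.8%. These rises start from few reads per naive library. In NSG naive they were 7 to 8 for Fgfr2, 5 to 12 for Fgf10, 1 to 18 for Fgf9 and 0 to 5 for Gdnf. In hHGF-NSG naive they were 3 to 8 for Fgf10. Mouse libraries held 895826 to 2471749 reads in naive and 1639063 to 5766509 in treated tumours, and the part of this depth was not tested.

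**Figure D5:**
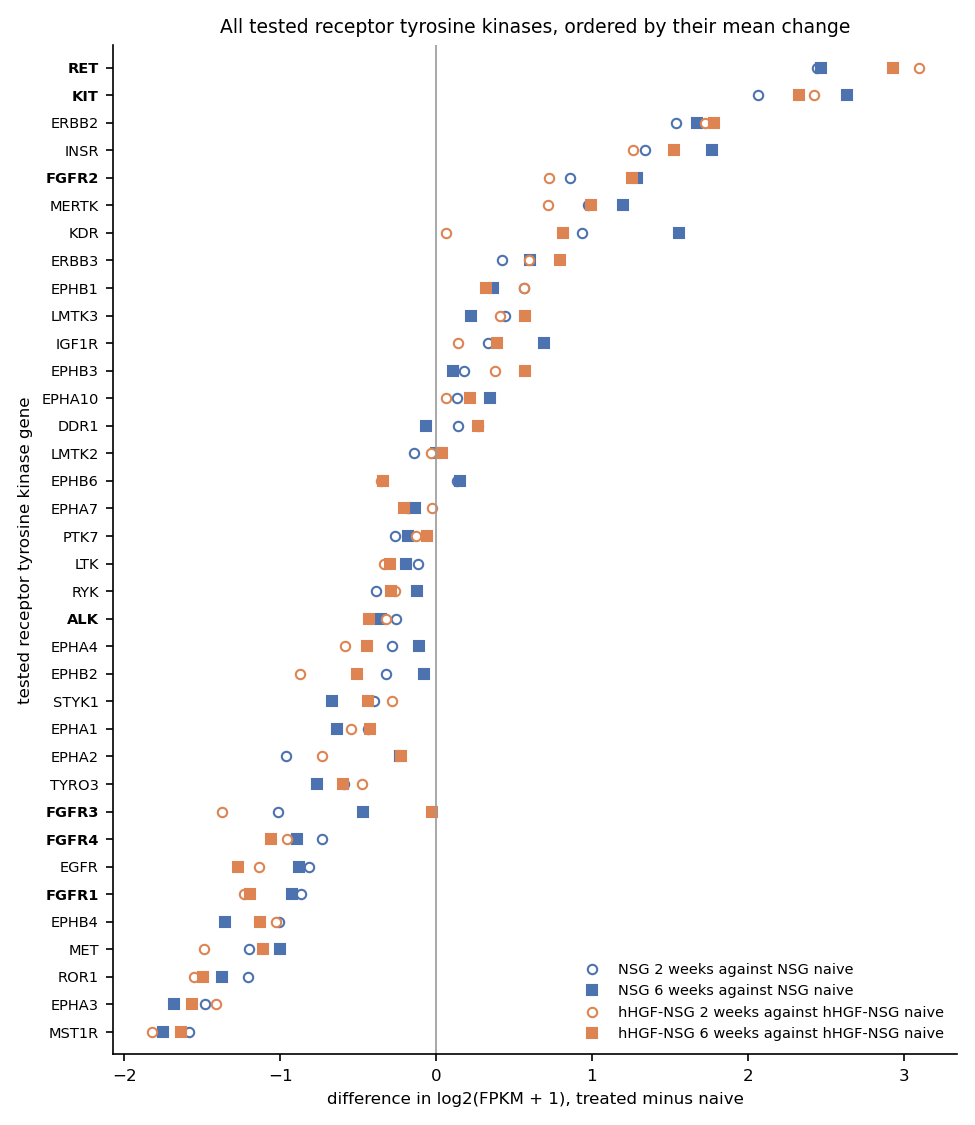
Difference in log2(FPKM + 1), treated minus naive (horizontal axis), for all 36 tested receptor tyrosine kinases, ordered by their mean change. Blue is NSG, orange hHGF-NSG, open circles 2 weeks and filled squares 6 weeks, and the members are in bold. RET and KIT stand at the top, between 2.07 and 3.10, and FGFR1 and FGFR4 lie below 0 in all 4 comparisons.

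RET and KIT led the rises among all receptor tyrosine kinases. Of 58 listed, 36 were tested. In NSG 10 were higher and 14 lower at 2 weeks, and 11 higher and 13 lower at 6 weeks. In hHGF-NSG 9 were higher and 16 lower at 2 weeks, and 10 and 15 at 6 weeks. These are 24 of 36 in NSG and 25 in hHGF-NSG at each time, where 51.3 to 57.6% of all genes were called. The median change of the 36 was -0.22, -0.27, -0.12 and -0.22 (2 weeks in NSG and hHGF-NSG, then 6 weeks), against 0.024 to 0.032 for all genes. On that scale RET and KIT had the largest rises of the 36 in all 4 comparisons, ahead of ERBB2, the partner of other ERBB receptors. ERBB2 rose from 16.7 to 50.1 FPKM in NSG after 2 weeks and from 14.8 to 50.5 in hHGF-NSG (1.54 and 1.73). As a ratio of mean FPKM, FGFR2 rose more than RET and KIT in NSG (9.77 at 2 weeks and 16.7 at 6 weeks). In hHGF-NSG at 6 weeks the FGFR2 ratio of 12.2 exceeded that of KIT. MST1R, the receptor of macrophage-stimulating protein and a relative of MET, had the largest falls on the log2(FPKM + 1) scale. It went from 9.30 to 2.38 in NSG and from 9.02 to 1.80 in hHGF-NSG at 2 weeks (-1.58 and -1.82), with -1.75 and -1.64 at 6 weeks. As a ratio of mean FPKM, FGFR1 fell further than MST1R at 2 weeks in hHGF-NSG, to 0.16.

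Adaptors couple the receptors to the pathways below them. Of 25 adaptors and docking proteins, 23 were tested: 5 were higher and 11 lower at 2 weeks in NSG, 6 and 12 in hHGF-NSG, and 6 and 11 at 6 weeks in each host, where 51.3 to 57.6% of all genes were called and 25.5 to 28.8% called lower. The list's median change was -0.21, -0.29, -0.28 and -0.26. SHC2, an adaptor known from neurons, rose from 2.27 to 19.0 and 23.8 FPKM in NSG and from 2.55 to 19.6 and 29.9 in hHGF-NSG. Its changes were 2.62 and 2.55 at 2 weeks (NSG first) and 2.91 and 3.13 at 6 weeks. DOK4, which binds RET, rose too, from 1.22 to 3.42 at 6 weeks in NSG and from 0.923 to 3.54 in hHGF-NSG (0.997 and 1.23). DOK1, a docking protein that restrains receptor signals, fell from 6.42 to 1.07 and from 5.06 to 1.91 over the same time (-1.84 and -1.04), and GRB10, an adaptor with an inhibitory role at the insulin receptor, fell from 15.3 to 4.98 and from 20.1 to 5.44 (-1.45 and -1.72).

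Of 14 ubiquitin ligases, phosphatases and related brakes on receptors, 12 were tested, and 2 were higher and 7 lower in each comparison but the last, where 1 was higher and 8 lower, against the same shares of all genes. PTPRJ, a receptor phosphatase, fell from 6.47 to 3.06 and from 5.54 to 2.96 FPKM at 2 weeks (-0.88 and -0.72), and by -0.77 and -0.74 at 6 weeks. SH3KBP1, which links CBL to receptor uptake, fell by -0.79, -0.78, -0.87 and -0.66. PTPRK fell by -0.59, -0.74 and -0.62 and stood at -0.25 at 6 weeks in NSG, which did not pass. LRIG1, a membrane protein that lowers ERBB receptor levels, rose by 0.64, 0.83, 0.59 and 0.84.

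Between 2 and 6 weeks fewer members moved. In NSG, KIT (0.57 ± 0.12, adjusted p = 0.00137), FGFR2 (0.43 ± 0.10, 0.00417) and FGFR3 were higher at 6 weeks, 3 of 8 tested where 20.4% of all genes were called and 8.43% called higher. In hHGF-NSG, FGFR2 (0.53 ± 0.11, 0.00217) and FGFR3 were higher, 2 of 8 where 9.08% were called and 2.63% called higher. KIT stood at -0.095 ± 0.12 there (0.754), and the host difference in its response at 6 weeks, -0.31 ± 0.18, did not pass (0.456). RET, EML4 and ALK differed by -0.17 to 0.16 between the times in either host, within the spread of the libraries.

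No member passed in a comparison of the hosts. In naive tumours 0.0187% of all tested genes were called, 3 in all (1427 at an unadjusted p under 0.05), and at 2 and 6 weeks none was, by limma on the deposited FPKM (681 and 1946 at an unadjusted p under 0.05, and 0 and 2 by voom on the recovered reads). The difference between hosts in the response called no gene at either time by limma or by voom (859 and 2142 at an unadjusted p under 0.05). Largest among the members were RET in naive tumours (-0.65), FGFR3 (0.58) and KIT (-0.37) at 6 weeks. The adjusted p of the last 2 were 0.279 for FGFR3 and 0.271 for KIT. Without NSG naive replicate 1 the naive comparison called 40 genes and the difference in response at 6 weeks called 62, again with no member among them.

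Genes whose profile over the 22 libraries was most like that of a member are named as a description. The points share the treatment groups, so much of each likeness is the step from naive to treated. ALK was most like LUZP1 (Pearson's r = 0.832), USP4, GEMIN5, MYO19 and NSD2 (0.818), out of 8090 genes compared. Among the genes most like EML4 were TOPBP1 (0.964), VPS26C, PHTF2 and PRKD3 (0.960). Among those most like RET were ACSS1 (0.987), KIAA0319L, SELENBP1 and ALAD (0.973). KIT was most like GLCCI1 (0.992), RHOU, GRAMD2A, BNIPL and CAB39L (0.984). FGFR1 was most like SEMA4B (0.984), PLXNA1, LAMC1, NEURL1B and TSR1 (0.978), and FGFR4 like ABCC1 (0.963), RCOR2, CDH24, SEMA4B and PFKP (0.960), so that SEMA4B, a semaphorin, was named for both. FGFR2 was most like ABLIM1 (0.984), LBH (0.979), the neighbour of ALK, CRY2, RNF144B and C1orf116 (0.975). FGFR3, which came back at 6 weeks in hHGF-NSG, was most like MROH6 (0.884), MXRA7, FN1, SPNS2 and PLS3 (0.841).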

How the data were processed

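RNA was sequenced from 22 H3122 xenografts. The authors deposited FPKM per gene in a human and a mouse table, per the file headers. GRCh38 (hg38), mm10 and DESeq2 are named in the submitters' processing notes, and the aligner, the annotation, the handling of strand and how reads of the 2 species were separated stand in none of the labels used here. Low values were whole multiples of 1 read (100% within 0.05 reads), which gave read counts and plain library totals. Each species' table was tested on its own with limma 3.58.1 (R 4.3.3, with a trend) on log2(FPKM + 1), with 1 mean per group over all libraries, for genes at an FPKM of 1 or more in at least 3 libraries. The 11 comparisons were adjusted by Benjamini-Hochberg within each, at 0.05, two-sided. Mouse fits hold 20 libraries. The members, the 15 human and 2 mouse gene lists and the tests were chosen with earlier results of these data known. Beyond the members, up to 4 genes of each list were named, those called with the largest absolute log2 change in any of the 4 treated-against-naive comparisons, plus the 3 nearest tested protein-coding genes on each side of ALK and EML4 and, for each tested member, the 5 protein-coding genes with the highest Pearson's r (highest group mean at least 5 FPKM). Of these, 2 are not reported here. Ligands, co-receptors, markers and mouse genes given by level alone (ALKAL2, GFRA1, GFRA2, GFRA4, GFRAL, ARTN, GDNF, KL, KLB, NAPSA, SFTPC, the absent stromal and leukocyte markers, and mouse Axl, Fgfr1, Gas6, Pros1 and Kitl) and human HGF fall outside this rule and were chosen after their values were seen. The ratio of ALK to EML4 was tested by exact permutation. Alternatives were a pseudocount of 0.1, no filter, a replicate block, median-ratio scaling and voom on recovered reads, each library left out in turn and, chosen after the data were seen, plain totals. The fit was tested on simulated data. No pair of libraries of the same group agreed within counting noise, and pairs across groups were not compared.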

Additional observations from a re-analysis of the deposited data

Results flagged for a closer look

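In 56 groups of 4 libraries, the highest or lowest library was compared with the rest of its group, and 3 stood far from the others, where chance flags about 1 in 20. All 3 are mouse genes at low levels. Mouse Alk was 0.1663 FPKM in NSG 2 weeks replicate 4, from 3 reads, and 0 in the other 3 libraries. Mouse Kit was 1.469 FPKM in NSG 2 weeks replicate 2, against 0.9364 to 1.019 in the others. Mouse Fgfr4 was 0.2828 FPKM in hHGF-NSG 2 weeks replicate 2, from 2 reads, and 0 in the other 3 libraries. Where all other libraries of a group are at 0, any read at all is flagged. The rate of 1 in 20 therefore does not apply to Alk and Fgfr4.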

How the results depend on the processing

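Of the members' results, 88 of 88 kept their direction and their side of the threshold with a pseudocount of 0.1 and with median-ratio scaling. With voom on the recovered reads 87 did, and with the replicate block 85. Without a filter, 3 no longer passed. The other 103 counted there include those of AXL and ROS1, which had no result with the filter and so could not be compared. The count of 103 is therefore not a count of results that held. Without a filter AXL was called lower in both treated hHGF-NSG groups than in naive tumours (limma adjusted p = 0.00279 and 0.0471). The main fit holds no such calls. Plain library totals, chosen after the data were seen, kept 78, ended 6 and reversed 4, and leaving out 1 library at a time kept 700, ended 15, gained 1 and reversed 44. Depth limits AXL (6 to 32 reads per library) and ROS1 (0 to 12), and a call lost with fewer libraries or more genes tested can come from that alone.

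Values that reversed with another scaling, voom or another pseudocount ran up to 0.14 for members and up to 0.22 for other genes. With plain totals they were EML4 in hHGF-NSG from 2 to 6 weeks (-0.046), RET in NSG from 2 to 6 weeks (-0.012) and between hosts at 2 weeks (-0.002555), FGFR3 at 6 weeks in hHGF-NSG (0.14), COX7A2L at 2 weeks in NSG (0.15) and hHGF-NSG (0.13), GAS6 at 6 weeks in NSG (0.090), and LTK (0.12), NELL2 (0.15) and THUMPD2 (0.13) at 2 weeks in NSG. With voom they were RET between hosts at 2 weeks (-0.004513) and GAS6 at 6 weeks in NSG (0.22), which was 0.098 with a pseudocount of 0.1. GAS6 at 2 weeks in NSG was -8.744e-05 with median-ratio scaling. The causes were not tested.

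Libraries with the same replicate number did not deviate together (correlations of their deviations from -0.178 to 0.265, not above 0.1 in every pair of any comparison), so the numbers do not pair them. With the replicate block the naive hosts differed in 1 gene, the change of ALK at 2 weeks in hHGF-NSG was -0.30 and did not pass (adjusted p = 0.0556, where its alternatives range from 0.00862 to 0.416), and the host difference in the EML4 response at 2 weeks (0.0011) and that of FGFR4 at 6 weeks (0.0051) reversed.

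Counts of called genes moved where they were near 0. Between naive hosts, 3 genes became 5 with a pseudocount of 0.1 and 25 without a filter. Between hosts at 2 weeks, 0 became 2 without a filter, and at 6 weeks 1 without a filter and 2 with voom. For the host difference in response, 0 became 9 at 2 weeks without a filter, and at 6 weeks 6 with a pseudocount of 0.1 and 5 without a filter.

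Leaving out 1 library at a time, the count between naive hosts ran from 0 to 40, between hosts from 0 to 1 at 2 weeks and, at 6 weeks, from 0 to 8, and for the host difference in response at 6 weeks from 0 to 62. The highest values of the first and last came without NSG naive replicate 1. The mouse lists had 1 to 3 and 1 to 5 calls in NSG (2 and 6 weeks) and 0 to 2 and 1 to 3 in hHGF-NSG. Values that crossed 0 were as follows. For ALK the host difference in response ran from -0.16 to 0.015 at 2 weeks and, at 6 weeks, from -0.17 to 0.031, and the host difference from -0.095 to 0.076 and -0.11 to 0.092. For EML4 the host difference in response at 2 weeks ran from -0.078 to 0.076, the host difference from -0.059 to 0.095 in naive tumours and -0.030 to 0.084 at 2 weeks, and the change from 2 to 6 weeks in hHGF-NSG from -0.097 to 0.077. RET ran from -0.10 to 0.16 between the times in NSG and from -0.13 to 0.13 between hosts at 2 weeks, and KIT from -0.14 to 0.054 between naive hosts. FGFR1 ran from -0.13 to 0.030 between the times in NSG, from -0.00068 to 0.076 in hHGF-NSG and from -0.14 to 0.013 between hosts at 6 weeks. FGFR2 ran from -0.087 to 0.036 for the host difference in response at 6 weeks and from -0.024 to 0.086 between hosts there. FGFR3 ran from -0.18 to 0.22 at 6 weeks in hHGF-NSG and from -0.11 to 0.29 between naive hosts, and FGFR4 from -0.091 to 0.050 between hosts at 6 weeks. COX7A2L ran from -0.071 to 0.15 at 6 weeks in NSG, and in hHGF-NSG from -0.19 to 0.013 at 2 weeks and, at 6 weeks, from -0.011 to 0.19. GAS6 ran from -0.21 to 0.13 and -0.22 to 0.12 in NSG and from -0.64 to 0.31 at 6 weeks in hHGF-NSG, NELL2 from -0.16 to 0.012 at 2 weeks in NSG and PROS1 from -0.013 to 0.27 at 6 weeks in hHGF-NSG. At 2 weeks in hHGF-NSG, mouse Fgf9 ran from -0.11 to 0.41 and mouse Gdnf from -0.30 to 0.013.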
